A study of Mus musculus with 34 samples.

Results

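Spinal cord tissue of mice without trkB.T1 (knockout, KO) was compared with that of wild-type (WT) mice 7 days after spinal cord injury, on 4 KO and 4 WT arrays of 34 in the series. The arrays were chosen by genotype and time from the labels, with no measured value used. Each array held Affymetrix probe sets read with biotinylated cRNA, and a gene with several probe sets was read through the brightest of them, averaged over the 34 arrays. Of 18193 genes, 11993 had a deposited log2 value above 4 on at least 4 arrays and were tested, and the other 6200 were not. The comparison also draws on 26 arrays of the same genotypes at other times. They comprise 4 WT and 4 KO arrays after sham surgery, in which the cord was left intact, 5 WT and 4 KO arrays at day 1 and 4 WT and 5 KO arrays at day 3. All KO groups carry the trkB.T1 null genotype, and both genotypes had the same procedures. The labels used here give no age, sex, strain, cord level or injury method, nor the construct behind the null allele. Whether arrays come from separate animals is also not stated, so p-values measure only the spread between these samples, and the number of arrays limits the precision.

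Ntrk2 encodes trkB, a receptor to which brain-derived neurotrophic factor binds. The full-length receptor carries a tyrosine kinase in the cell, and the truncated form trkB.T1, made from the same gene by alternative splicing, shares the outer domain and lacks the kinase. Astrocytes make mostly trkB.T1, and neurons make the full-length form. By a week after cord injury, the tissue holds microglia and infiltrating macrophages clearing debris, reactive astrocytes at the lesion border, and fibroblasts and vessels in the lesion. In bulk tissue, fewer cells of a type and less RNA per cell cannot be told apart.

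Markers of the tissue's main cells were high on all 8 day 7 arrays. Snap25 of neurons lay between 14.57 and 14.82 and Mbp of oligodendrocytes between 15.60 and 15.70, with Gfap of astrocytes at 13.34 to 13.63 and Aif1 of microglia at 10.56 to 10.87. Chat of motor neurons, Scn10a of sensory ganglia and Cd3e of T cells read 2.17, the lowest deposited value, on every one. The probe set of the endothelial marker Pecam1 stayed below 4. A probe set at such a value does not show that its cell type was absent. Prph, also taken as a marker of sensory ganglia, read 7.76 to 8.59. WT replicate 3 stood apart, with Acta1, an actin of skeletal muscle, at 11.58 and Myh4, a fast muscle myosin, at 9.67, against 5.34 to 8.02 and 2.64 to 5.18 on the other 7 arrays. Its mean of the 2 tested red cell genes, Alas2 and Slc4a1, was 7.65, against 4.11 to 6.09. The KO arrays at day 7 were the most alike of the 8 groups, with a median SD of 0.0839 over genes. In WT at day 7 that SD was 0.127, and 72.0% of genes had the smaller SD in KO. One array outside the day 7 groups went against its label. In the library labelled KO sham replicate 2, an Ntrk2 probe set that read 2.83 on the other 16 KO arrays stood at 8.59, close to the WT range of 8.65 to 9.92. A second Ntrk2 probe set stood at 9.46 there, against 10.01 to 10.86 in WT and 3.12 to 4.94 on the other KO arrays. Both values were below those of every WT array. Sham values of the genes called at day 7 and of Cnmd and Mid1 are therefore also given without that library where it moves them.

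Ntrk2 was read by 8 probe sets, here called A to H in the order of their genotype difference, and they split. Probe set A read 9.67, 9.92, 9.66 and 9.72 in WT and 2.83 on each KO array. Probe set B read 10.47, 10.86, 10.59 and 10.64 in WT and 3.96, 4.24, 3.98 and 4.53 in KO. Neither overlapped between genotypes, and the signal of both was close to background in KO. The differences in KO minus WT were -6.91 ± 0.67 (log2 ± SE) for A and -6.46 ± 0.66 for B, with adjusted p = 8.5e-07 and 1.5e-06 in limma over 24576 probe sets. With values under 4 set to 4, A still differed by -5.74. Probe sets F, G and H went the other way. F, the brightest and therefore the one that stands for the gene, read 9.95, 10.16, 9.93 and 9.99 in WT and 10.68, 10.65, 10.61 and 10.61 in KO. The KO arrays were above the WT arrays for all 3 probe sets, with differences of 0.63 ± 0.21, 0.66 ± 0.19 and 0.79 ± 0.22. None of the 3 passed, with adjusted p of 0.86, 0.62 and 0.529 in limma. Probe set C, which was below 4 on every day 7 array, differed by -0.50 ± 0.15, and D and E, at or near background, by -0.14 and 0. Which part of the transcript each probe set reads is not given in the sources used here.

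**Figure D1:**
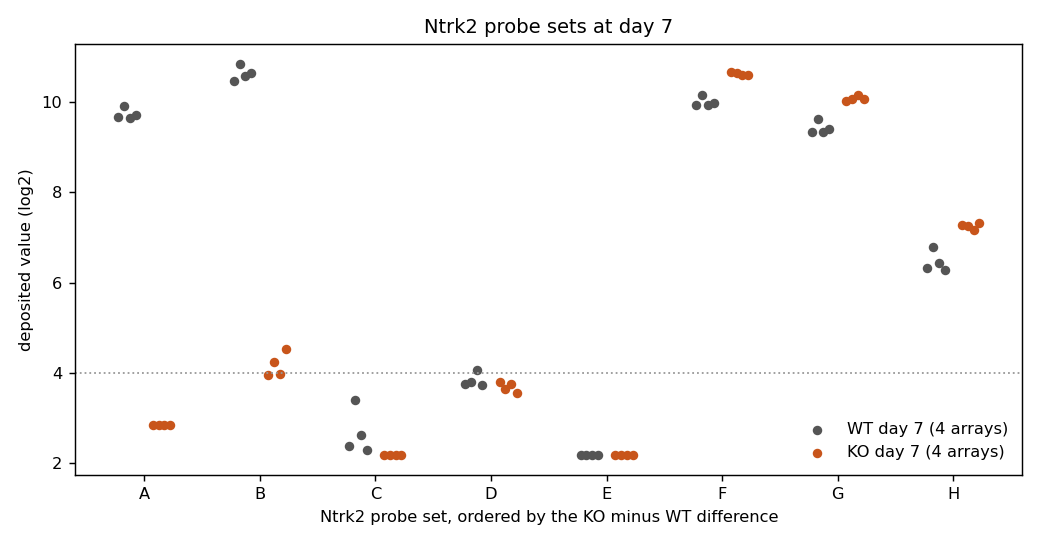
Deposited log2 values of the 8 Ntrk2 probe sets on the 4 WT and 4 KO arrays at day 7, 1 point per array, with the dotted line at log2 4, below which a value is not well above background. A and B are near or below the line in KO and at 9.66 to 10.86 in WT, and F, G and H are higher in KO with no overlap.

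Other genes of neurotrophin signalling did not pass. Bdnf, the ligand, differed by 0.30 ± 0.29, the p75 receptor Ngfr by -0.28 ± 0.42, the neurotrophin 3 receptor Ntrk3 by -0.01 ± 0.15 and Sort1, the sortilin that binds proneurotrophins, by -0.15 ± 0.14. None of the 10 tested genes of the neurotrophin list passed in limma or had an unadjusted p under 0.05. Among the 20 genes annotated nearest to Ntrk2 on either side, 10 were tested and none had an unadjusted p under 0.05.

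Across the genome the genotypes were close. Of 11993 genes, 4 passed in limma at an adjusted p under 0.05 (0.0334%), 2 of them higher in KO (0.0167%) and 2 lower (0.0167%). Differences were above 0 for 51.6% of genes and below 0 for 48.3%, with a median of 0.00437 and quartiles of -0.0721 and 0.0892, against a median SE of 0.123. An unadjusted p under 0.05 was reached by 321 genes higher in KO (2.68%) and 255 lower (2.13%). All 4 KO arrays lay above all 4 WT arrays for 5.24% of genes, and below them for 3.49%. Differences of at least 2-fold were seen for 19 genes higher in KO (0.158%) and 37 lower (0.309%), and 9 and 10 of these had no overlap. Calls in the same fit numbered 7 higher (0.0584%) and 1 lower (0.00834%) at sham, 23 (0.192%) and 80 (0.667%) at day 1, and 2 (0.0167%) in each direction at day 3. The plot of all tested genes sets size against p, and its largest differences are not those that passed.

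**Figure D2:**
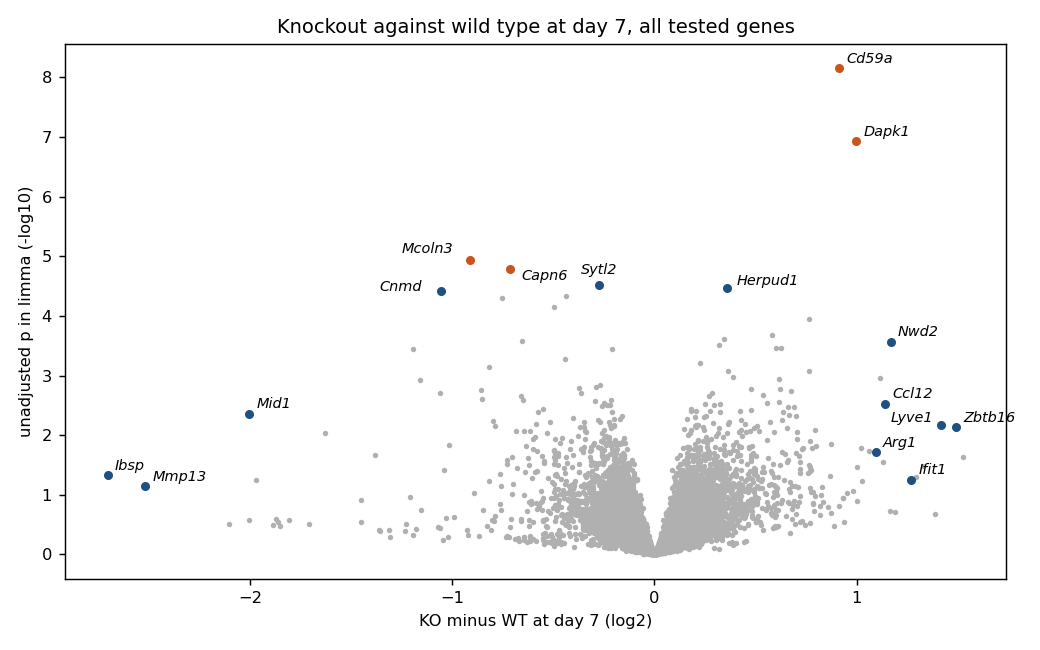
KO minus WT log2 difference at day 7 (horizontal) against the -log10 of the unadjusted limma p (vertical) for each of 11993 genes, with the 4 genes that passed in orange and other named genes in blue. Cd59a and Dapk1 stand apart at the top, while Ibsp and Mmp13 have the largest differences, with unadjusted p of 0.0474 and 0.0711.

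The 2 genes higher in KO were Cd59a and Dapk1. Cd59a encodes a membrane-anchored protein that stops the terminal complement complex from forming a pore in the cell's own membrane. It read 9.38, 9.20, 8.99 and 9.09 in WT and 10.14, 10.08, 10.06 and 10.04 in KO. Every KO array was above every WT array. The difference was 0.91 ± 0.11, or 1.88-fold, with adjusted p = 8.5e-05 in limma. Its other probe set gave 0.92 ± 0.132, adjusted p = 0.000623 over all probe sets. The same gap was there without injury and at the earlier days, at 0.87, 0.86 and 0.91 for sham, day 1 and day 3, each from its own arrays and with no overlap at any time. Without the library labelled KO sham replicate 2, which itself read 9.70, the sham difference was 0.99 ± 0.11. Day 7 minus sham for Cd59a was -0.01 ± 0.11 in WT and 0.03 ± 0.11 in KO (-0.08 in KO without that library). The genotype difference at day 7 less its mean at the other times was 0.03 ± 0.13, adjusted p = 1 in limma. Of the 13 tested complement genes Cd59a was the only one called. The remaining 12 ran from -0.36 ± 0.33 for Cd93 to 0.59 ± 0.31 for C2, which is cleaved to form the C3 convertase.

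Dapk1, a calcium- and calmodulin-dependent kinase that promotes cell death, read 6.76, 6.26, 6.86 and 6.58 in WT and 7.46, 7.69, 7.62 and 7.68 in KO. The groups did not overlap. KO was higher by 1.00 ± 0.14, or 2-fold, with adjusted p = 0.000715 in limma. At sham, day 1 and day 3 the difference was 0.66, 0.95 and 0.99, again with no overlap, and the sham value was 0.74 ± 0.15 without the library labelled KO sham replicate 2. Its day 7 difference exceeded the mean of the other times by 0.13 ± 0.16, adjusted p = 1 in limma. Dapk1 lies on the chromosome of Ntrk2, 32 annotated genes away, of which 12 are protein-coding.

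**Figure D3:**
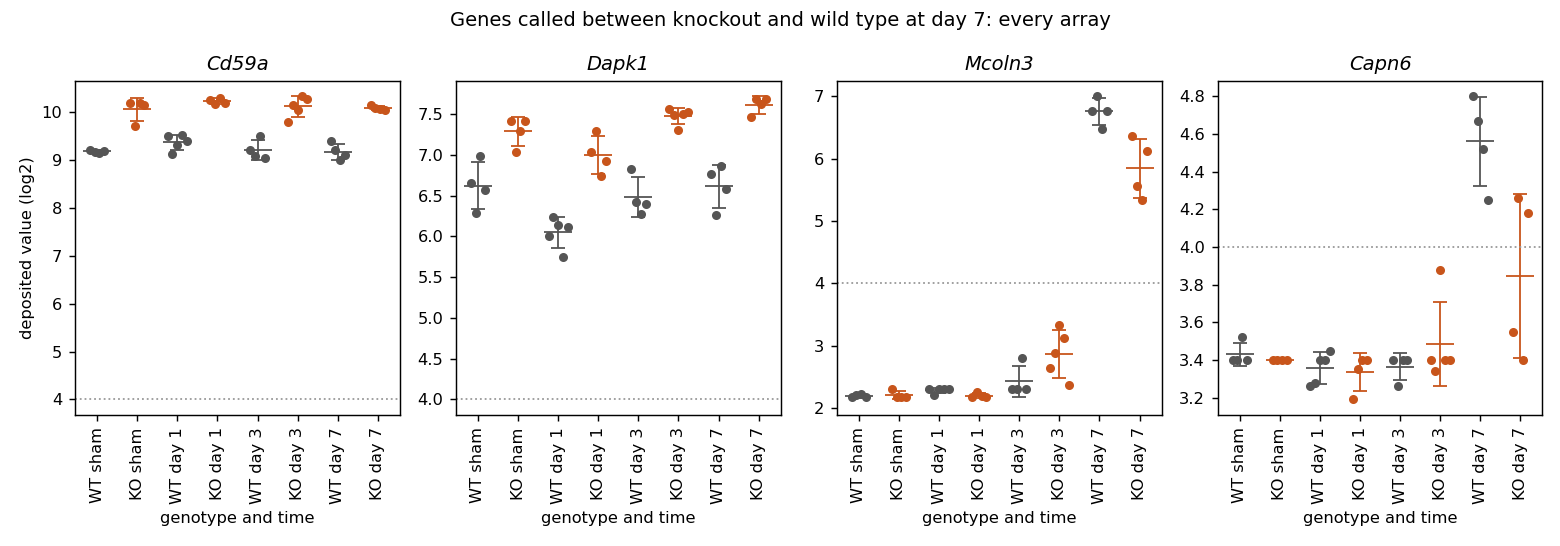
Deposited log2 values of Cd59a, Dapk1, Mcoln3 and Capn6 on every array by genotype and time (points), with group mean and SD (bars) and a dotted line at log2 4. Cd59a and Dapk1 are higher in KO at all 4 times, while Mcoln3 and Capn6 are near background until day 7, when WT exceeds KO.

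The 2 genes lower in KO, Mcoln3 and Capn6, had another time course. Mcoln3 encodes mucolipin 3, a cation channel of endosomes and lysosomes. It was near background after sham surgery, with a WT mean of 2.19, and at day 7 read 6.77, 7.00, 6.48 and 6.77 in WT and 6.36, 5.56, 5.33 and 6.12 in KO. All 8 sham arrays lay at 2.17 to 2.30, so the rise after injury is a bound, of at least 2.75 on the log2 scale in WT and 1.84 in KO when sham values are set to 4. It passed in both genotypes, with adjusted p = 1.45e-18 and 1.57e-16 in limma, and all KO arrays were below all WT arrays at day 7. The genotype difference was -0.91 ± 0.17, a 1.88-fold lower level, with adjusted p = 0.0464 in limma. At sham and day 1 the difference was 0.01 and -0.08, and at day 3 it was 0.45 ± 0.16 in the other direction, adjusted p = 0.349 in limma. Day 7 differed from the mean of the other times by -1.03 ± 0.20, which did not pass, with adjusted p = 0.156 in limma over all genes. The call is a narrow one. It was lost when WT replicate 1, 2 or 4 or KO replicate 2 or 3 was left out, with adjusted p of 0.209, 0.123, 0.103, 0.212 and 0.321 in limma.

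Capn6 encodes a calpain-family protein that lacks protease activity and binds microtubules. Its values at day 7 were 4.80, 4.67, 4.52 and 4.25 in WT and 3.55, 4.26, 3.40 and 4.18 in KO. The groups met at their edges, and 2 of 4 KO arrays were not well above background. The difference was -0.71 ± 0.14, adjusted p = 0.0492 in limma, and with values under 4 set to 4 Capn6 was at least 1.37-fold lower in KO. All 8 sham arrays were below 4, so the day 7 level in WT was higher than in sham cord by at least 0.56 on the log2 scale, and in KO, where the day 7 mean is also below 4, no change can be given. Genotype differences at sham, day 1 and day 3 were -0.03, -0.02 and 0.12, and the test of day 7 against them gave adjusted p = 0.218 in limma. Leaving out WT replicate 1, 2 or 3 or KO replicate 1 or 3 ended the call, with adjusted p of 0.306, 0.123, 0.119, 0.262 and 0.321.

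No gene's genotype difference at day 7 departed from its mean at the other 3 times at an adjusted p under 0.05 in limma (0 of 11993), and 226 (1.88%) and 207 (1.73%) did so upward and downward at an unadjusted p under 0.05. Without the library labelled KO sham replicate 2, Cnmd passed, at -1.32 and adjusted p = 0.0154. Cnmd encodes chondromodulin, a cartilage protein that restrains vessel growth. It was also the 1 gene (0.00834%) whose injury response, day 7 minus sham, differed between genotypes, by -1.93 ± 0.31 with adjusted p = 0.00935 in limma. At day 7 it read 5.41, 4.52, 4.66 and 4.67 in WT and 3.55, 4.18, 3.72 and 3.59 in KO. The groups did not overlap, and 3 KO arrays were below 4. The day 7 difference was -1.06 ± 0.22, at least 1.71-fold lower in KO, and missed the threshold with adjusted p = 0.0669 in limma. In sham cord the order was the reverse, with a KO mean of 4.61 ± 0.63 (SD, 4 arrays) and a WT mean of 3.73 ± 0.17. Since WT sham values were all below 4, as were 3 of 4 KO values at day 7, the changes after injury are bounds, of at least 0.82 upward in WT and 0.56 downward in KO on the log2 scale. With values under 4 set to 4, the difference in injury response was -1.42, adjusted p = 0.0135 in limma. The library labelled KO sham replicate 2 read 3.84, the lowest of its group, and without it the difference in injury response was -2.19, adjusted p = 7.24e-05 in limma. Skeletal muscle genes were also higher in KO sham cord, with list means of 7.20 to 10.08 against 3.83 to 8.55 in WT sham cord. Their median change from sham to day 7 was -4.07 in KO and 0.05 in WT. Schwann cell genes had a median sham difference of 0.59. Without the library labelled KO sham replicate 2, the muscle change in KO was -4.25 and the Schwann cell sham difference 1.01. The part of tissue beside the cord in the Cnmd values was not tested.

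The 20 genes that came next by p, 10 in each direction, included several with tight groups and small differences. Herpud1, which helps clear unfolded proteins at the endoplasmic reticulum, read 8.68, 8.77, 8.64 and 8.74 in WT and 9.10, 9.04, 9.19 and 8.94 in KO. The groups were apart, and the difference was 0.36 ± 0.07, adjusted p = 0.0669 in limma. Its second probe set gave 0.377 ± 0.113. Slc2a12, a glucose transporter, was at 4.28 to 4.79 in WT and 4.97 to 5.42 in KO, a difference of 0.76 ± 0.17. Nwd2, a gene of neurons, read 4.70, 4.78, 4.87 and 4.26 in WT and 5.70, 6.19, 5.87 and 5.52 in KO. The difference was 1.17 ± 0.28, adjusted p = 0.218 in limma, and day 7 minus sham was -2.26 in WT and -0.68 in KO. Elfn1, a synaptic protein of interneurons, had 0.60 ± 0.15 between genotypes and day 7 minus sham of -1.29 in WT and -0.52 in KO. The genotype difference in injury response passed for neither Nwd2 nor Elfn1, with adjusted p of 0.471 and 0.589 in limma.

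On the lower side, Sytl2, a Rab27 effector in vesicle traffic, was at 10.31 to 10.51 in WT and 10.11 to 10.23 in KO, a difference of -0.27 ± 0.05, adjusted p = 0.0669 in limma. Pnmt, the enzyme that turns noradrenaline into adrenaline, differed by -0.44 ± 0.09, the mitochondrial carrier Slc25a45 by -0.75 ± 0.16, and the lysophosphatidic acid receptor Lpar6 by -0.50 ± 0.11. Their adjusted p-values in limma were 0.0679, 0.0679 and 0.0857. Man2b2, a lysosomal mannosidase, and Cln6, a membrane protein whose loss causes a lysosomal storage disease, differed by -0.65 ± 0.16 and -0.44 ± 0.11. Itga4, the alpha 4 integrin by which leukocytes enter tissue, read 5.93, 5.78, 5.79 and 6.33 in WT and 5.21, 5.14, 5.07 and 5.14 in KO. The groups were apart, with -0.82 ± 0.22 and adjusted p = 0.37 in limma, and a second Itga4 probe set gave -0.439 ± 0.244. Of these 20 genes and the 4 called, 18 had the day 7 sign at sham, 17 at day 1 and 11 at day 3. Most of those differences were small. The median size of the 24 was 0.639 at day 7. Counted as positive when in the day 7 direction, the median was 0.0293 at sham, 0.0358 at day 1 and -0.0325 at day 3.

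The largest differences had larger spreads and none passed. Zbtb16, a zinc finger factor induced by glucocorticoids, was 2.81-fold higher in KO, with WT at 6.80, 7.30, 6.40 and 5.26 and KO at 7.38, 8.47, 7.93 and 7.94. All KO arrays were above all WT arrays, and the difference of 1.49 ± 0.52 had adjusted p = 0.816 in limma. Lyve1, a hyaluronan receptor of lymphatic vessels and border macrophages, read 3.40 to 4.30 in WT and 5.15 to 5.57 in KO, at least 2.34-fold higher in KO. Ccl12, a chemokine that draws monocytes, was at 6.82 to 7.74 in WT and 8.02 to 9.08 in KO, a difference of 1.14 ± 0.35. Cldn1, a tight junction claudin, was at 4.31 to 5.61 and 5.81 to 6.50, a difference of 1.12 ± 0.31. Arg1, an enzyme of alternatively activated macrophages, differed by 1.09 ± 0.44, but its groups overlapped, with WT replicate 1 at 9.26 and KO at 8.25 to 9.28.

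Among genes lower in KO with no overlap, the 2 with the largest differences were Ibsp and Mmp13, genes of bone and cartilage. Ibsp, a bone sialoprotein, read 4.79, 5.87, 7.90 and 5.30 in WT and 3.24, 3.21, 3.41 and 3.19 in KO. No KO array rose above background, so the level was at least 3.91-fold lower (at least 2.5-fold without WT replicate 3), and the difference of -2.71 ± 1.31 had adjusted p = 1 in limma. Mmp13, a collagenase of cartilage and bone, read 6.88, 7.29, 8.64 and 8.10 in WT and 5.30, 4.34, 5.48 and 5.71 in KO, a difference of -2.52 ± 1.34. Acp5, the acid phosphatase of osteoclasts, differed by -1.21 ± 0.73, and Ctsk, the osteoclast cathepsin that macrophages also make, by -1.02 ± 0.39. Comp, a cartilage matrix protein, was below 4 on all KO arrays and 1 WT array, which leaves a bound of at least 1.11-fold lower in KO. WT replicate 3, the array with high muscle genes, was the highest for Ibsp, Mmp13, Acp5 and Ctsk. Without it the differences were -2.06, -2.22, -0.873 and -0.764. A list of 19 bone and cartilage genes, drawn up after these values were seen, had 10 tested members, of which 8 were below 0. Its mean was 6.34, 6.33, 7.14 and 6.71 on the WT arrays and 5.68, 5.58, 5.61 and 5.64 on the KO arrays. The part of bone or other tissue beside the cord in these values was not tested. At day 3 the genotype differences of Mmp13 and Acp5 had the opposite sign, at 2.76 and 1.58, and neither was called.

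Mid1, a microtubule-bound ubiquitin ligase, was 4.01-fold lower in KO. It read 7.29, 6.94, 7.96 and 7.08 in WT and 4.29, 5.70, 5.14 and 6.12 in KO, with no overlap. The difference was -2.01 ± 0.65, adjusted p = 0.755 in limma. At sham, day 1 and day 3 it was -0.71 (-0.93 without the library labelled KO sham replicate 2), -1.05 and -1.10, below 0 each time.

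Beyond single genes, 35 lists of pathways and cell types were read by their counts, to be set against the 51.6% of all genes above 0, the 2.68% and 2.13% with an unadjusted p under 0.05 higher and lower, and the 5.24% and 3.49% with no overlap. Apart from Cd59a, no member of any list was called. The plot of list members shows each tested gene for 18 of the lists.

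**Figure D4:**
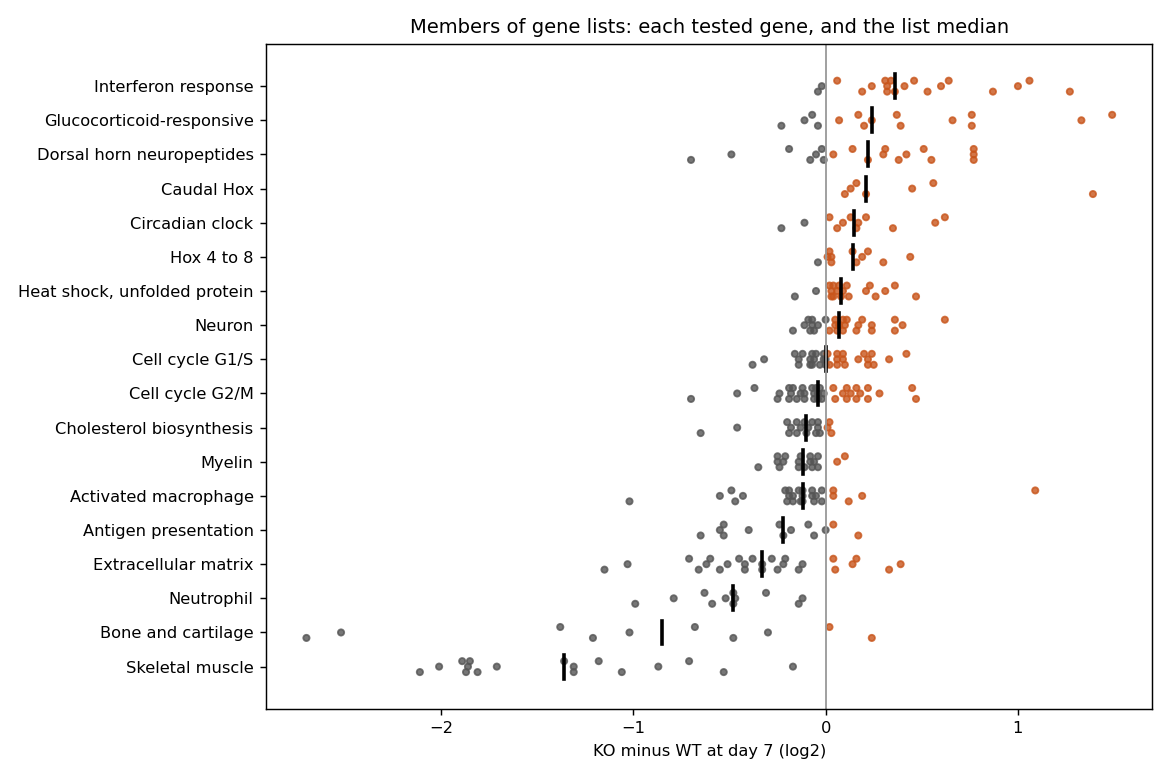
KO minus WT log2 differences at day 7 of the tested members of 18 gene lists, 1 point per gene (orange above 0, grey otherwise), with a black bar at each list's median. Medians run from 0.36 for interferon response genes to -1.36 for skeletal muscle genes, and without WT replicate 3 the muscle median is -0.392 and the neutrophil median 0.169.

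Interferon response genes had the highest median. Type I interferon, made on sensing foreign nucleic acid, switches on antiviral genes, many of which share a short element in their promoters. Of 19 tested members 17 were above 0 and 2 below, with a median of 0.36, and 3 had an unadjusted p under 0.05, all higher in KO. Ifit1, whose protein binds foreign RNA, read 6.32, 5.80, 6.81 and 7.00 in WT and 7.69, 7.46, 7.42 and 8.45 in KO. The groups did not overlap, with 1.27 ± 0.64 and adjusted p = 1 in limma. Ifit2 and Ifit3 of the same family differed by 0.64 ± 0.26 and 0.87 ± 0.42, and Mx1, an antiviral GTPase, by 1.06 ± 0.42. Cxcl10, an interferon-induced chemokine that is not in this list, read 7.13, 6.88, 7.62 and 8.06 in WT and 8.12, 8.40, 8.44 and 8.73 in KO. Its difference was 1.00 ± 0.45. The mean of the list was 7.21, 6.73, 7.44 and 7.81 in WT and 7.83, 7.44, 7.69 and 8.11 in KO, so the groups overlapped. The list's median genotype difference was -0.07 at sham (0.08 without the library labelled KO sham replicate 2), 0.70 at day 1 and 0.49 at day 3.

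The promoters of Ifit1 and Ifit3 are shown because these genes had values given above and their windows carry the interferon element in 2 copies each, as do those of 4 other genes of the list. They are 300-base windows from RefSeq on GRCm38.p6, from 250 bases before to 50 after the start, with matches to GAAA, any 2 bases and GAAA on either strand in capitals. The matches shown here lie on the opposite strand and so read TTTC, 2 bases and TTTC. Ifit1 is at chr19:34640639-34640938 and Ifit3 at chr19:34583279-34583578, both on the plus strand.
Ifit1: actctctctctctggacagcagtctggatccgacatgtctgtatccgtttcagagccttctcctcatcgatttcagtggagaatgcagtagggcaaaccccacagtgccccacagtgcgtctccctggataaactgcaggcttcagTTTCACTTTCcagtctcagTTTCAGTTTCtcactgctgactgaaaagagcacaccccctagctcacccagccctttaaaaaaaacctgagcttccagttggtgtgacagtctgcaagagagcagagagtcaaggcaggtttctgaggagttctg
Ifit3: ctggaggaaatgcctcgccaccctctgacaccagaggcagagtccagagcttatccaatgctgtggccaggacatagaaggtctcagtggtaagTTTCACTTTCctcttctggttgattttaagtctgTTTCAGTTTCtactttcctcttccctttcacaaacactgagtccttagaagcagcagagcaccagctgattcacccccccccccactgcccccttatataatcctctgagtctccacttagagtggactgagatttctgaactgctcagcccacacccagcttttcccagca
Of 17 interferon genes with a promoter in that table, 9 held the motif in at least 1 promoter, against 3.99% of 27025 genes and 3.44% of 32851 promoters. The median day 7 difference was 0.36 for members with a match and 0.33 for those without. A match is a description of letters, and binding was not measured.

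Glucocorticoid-responsive genes were next, with 11 of 15 above 0, a median of 0.24, 4 with an unadjusted p under 0.05 and 7 with no overlap, all of them higher in KO. Fkbp5, a co-chaperone of the glucocorticoid receptor and a standard readout of it, read 8.96, 8.93, 8.97 and 8.53 in WT and 9.31, 10.09, 9.45 and 9.59 in KO. The groups were apart, with 0.76 ± 0.34. Plin4, a lipid droplet protein, read 4.40, 4.54, 4.60 and 3.80 in WT and 4.74, 6.05, 5.99 and 5.88 in KO, and Sult1a1, a sulfotransferase, differed by 0.76 ± 0.36. The metallothioneins Mt1 and Mt2, also hormone-responsive, did not share this, at -0.11 ± 0.07 and -0.04 ± 0.08. The mean of the list was 9.14 ± 0.11 (SD, 4 arrays) in WT and 9.54 ± 0.13 in KO, with no overlap. Its median difference was 0.16 at sham, 0.66 at day 1 and -0.18 at day 3.

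Clock genes, some of which respond to glucocorticoids, had 10 of 12 members above 0 and a median of 0.14. Per2, a repressor arm of the clock, read 6.08, 5.88, 5.63 and 5.88 in WT and 6.35, 6.52, 6.41 and 6.49 in KO. All KO arrays were higher, by 0.57 ± 0.19, adjusted p = 0.816 in limma. Hlf, an output factor of the clock, differed by 0.62 ± 0.28, and Arntl, which drives the opposite phase, by -0.23 ± 0.12. The time of day of tissue collection is not in the labels and its part was not tested. Heat shock and unfolded protein genes had 17 of 19 above 0, with a small median of 0.08, and an unadjusted p under 0.05 for Herpud1 and for Dnajb1, an Hsp40 co-chaperone, at 0.21 ± 0.07.

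Most neuronal genes were above 0 in KO minus WT. Of 27 tested neuron genes 19 were above 0, and 7 had no overlap, all higher in KO, with a median of 0.07 and none with an unadjusted p under 0.05. The mean of the neuron list was 10.88 to 11.04 in WT and 11.02 to 11.07 in KO, so the groups overlapped. Neuropeptides of the dorsal horn, the sensory side of the cord, and their receptors had 12 of 19 above 0, a median of 0.22, and 6 with no overlap in that direction against 1 in the other. Grp, a peptide of itch circuits, read 7.18, 6.82, 7.24 and 7.26 in WT and 7.81, 8.05, 7.95 and 7.78 in KO. The groups were well apart, with 0.77 ± 0.36. Nmu, neuromedin U, differed by 0.77 ± 0.35, and the neuropeptide Y receptor Npy1r by 0.31 ± 0.14. Calcb, a calcitonin gene-related peptide found in motor and sensory neurons, went the other way at -0.49 ± 0.23. The mean of the dorsal horn list was 7.39 to 7.59 in WT and 7.57 to 7.77 in KO, which also overlapped. Its median difference was -0.14 at sham, 0.33 at day 1 and -0.30 at day 3.

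Hox genes, whose expression marks position along the cord, were also mostly above 0. Differences were above 0 for 10 of 11 genes of paralogue groups 4 to 8 and for 7 of 7 of groups 9 to 13, with medians of 0.14 and 0.21. At sham, day 1 and day 3 the medians of groups 4 to 8 were -0.03, 0.08 and -0.13. Those of groups 9 to 13, the caudal genes, were 1.33, 0.31 and -0.13. The mean of the caudal genes was 8.05, 7.59, 7.88 and 7.93 in WT and 8.16, 8.39, 8.44 and 8.18 in KO, with no overlap. Hoxb9 differed by 0.56 ± 0.36 and Hoxa5 by 0.19 ± 0.13. The part of cord level in the neuronal values was not tested. Over 23 alternative settings of the fit, which include the caudal mean as a covariate, the neuron median ran from -0.078 to 0.122. That of the dorsal horn list ran from 0.019 to 0.279. When the mean of the caudal genes entered the fit, Cd59a, Dapk1 and Mcoln3 were called at 0.951, 0.978 and -0.77. Capn6 was not, with adjusted p = 0.0877 in limma. Sytl2 and Cnmd, not called in the main fit, passed there at -0.288 and -1.14, each with adjusted p = 0.044 in limma.

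**Figure D5:**
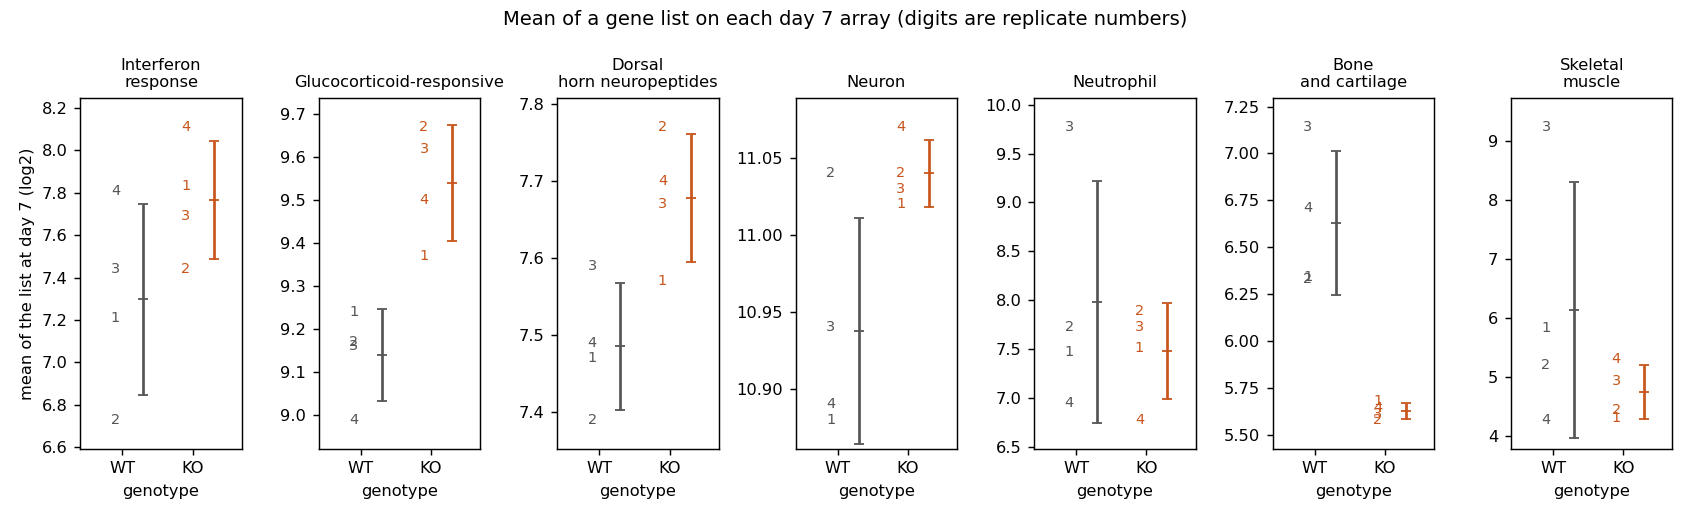
Mean log2 value of 7 gene lists on each day 7 array, with digits for replicate numbers and bars for group mean and SD; each panel has its own axis. Glucocorticoid-responsive genes do not overlap between genotypes; the bone genes, which also do not, were listed after their values were seen, and WT replicate 3 is the highest array for muscle (9.23), neutrophil (9.77) and bone (7.14) genes.

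Lists of phagocytes and antigen presentation had most members below 0, while complement and cytokine genes had medians of 0.01 and 0.00. Of 27 genes of activated and lipid-laden macrophages 22 were below 0, with a median of -0.12, and Itgax, an integrin of phagocytes, differed by -0.55 ± 0.23. Without WT replicate 4 the macrophage median was -0.02, with 16 of 27 below 0. Antigen presentation genes had 11 of 13 below 0 and a median of -0.22, or 9 of 13 and -0.12 without that array. Cd86, the costimulatory ligand for T cells, read 6.86, 6.82, 6.73 and 6.74 in WT and 6.31, 6.09, 6.19 and 6.42 in KO. The 2 ranges were narrow and apart, with -0.53 ± 0.19, which did not pass. Cd74, the invariant chain of class II molecules, differed by -0.65 ± 0.38. Homeostatic microglia genes split, with 7 above 0 and 9 below, and their mean was 10.05 to 10.15 in WT and 10.03 to 10.07 in KO. The 11 neutrophil genes were all below 0, with a median of -0.48, but without WT replicate 3 the median was 0.169 and 7 were above 0.

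Most genes of matrix and vessels were below 0, and WT replicate 4 had a large part in this. Of 26 extracellular matrix genes 20 were below 0, with a median of -0.33, and Mmp14, a membrane collagenase, differed by -0.60 ± 0.24. Eln, elastin, read 6.63, 5.80, 6.75 and 7.48 in WT and 5.65, 5.62, 5.53 and 5.62 in KO. The KO values were nearly equal and all below the WT values, with -1.06 ± 0.31 and adjusted p = 0.614 in limma. The list mean in WT spread from 8.66 in replicate 2 to 10.46 in replicate 4. In KO it was 9.23 to 9.59, so WT replicate 2 lay below all KO arrays and the groups overlapped. Without WT replicate 4 the median was -0.13, with 18 of 26 below 0, and Eln and Mmp14 differed by -0.79 and -0.30. Over 23 alternative settings of the fit the median ran from -0.664 to -0.075. Endothelial genes had 12 of 18 below 0, including Cldn5, a claudin of the blood-brain barrier, at -0.70 ± 0.29 and Tek, the angiopoietin receptor, at -0.59 ± 0.28. Their median was -0.21, and 0.04 without WT replicate 4, when Cldn5 and Tek differed by -0.41 and -0.26. Over the same 23 settings the endothelial median ran from -0.366 to 0.044. Slc40a1, the iron exporter ferroportin, differed by -0.79 ± 0.27. Skeletal muscle genes were below 0 in 17 of 17, with a median of -1.36, and WT replicate 3 had a list mean of 9.23 against 4.28 to 5.83 on the other WT arrays and 4.31 to 5.30 in KO. Without that array the muscle median was -0.392.

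Myelin and cholesterol genes had small, mostly negative differences. Of 18 myelin and oligodendrocyte genes 16 were below 0, with a median of -0.12. Sox10, the factor that maintains the lineage, read 9.24, 9.23, 9.17 and 9.17 in WT and 9.02, 8.88, 9.06 and 8.85 in KO. All KO arrays were lower, by -0.25 ± 0.11, and Opalin, a myelin membrane protein, differed by -0.35 ± 0.14. For cholesterol synthesis 16 of 19 were below 0, with a median of -0.10. Mvk and Mvd, enzymes of the mevalonate pathway, differed by -0.65 ± 0.20 and -0.46 ± 0.17, and for both the groups overlapped through KO replicate 4.

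Cell cycle genes had small differences at day 7. The genotype differences of 33 G1/S and 37 G2/M genes had medians of -0.57 and -0.68 at day 1, with 9 and 15 members called lower in KO there in limma against 0.667% of all genes. At day 7 the medians were 0.00 and -0.04, with 17 and 14 members above 0 and none called. Ccna2 and Cdk1, of the S and mitotic phases, differed by -0.07 ± 0.24 and 0.09 ± 0.21, and Ccnd1, the G1 cyclin, by 0.20 ± 0.13. The change between day 1 and day 7 was not tested.

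A fit over all 24576 probe sets called 4 higher (0.0163%) and 6 lower (0.0244%) in KO. Beyond the Ntrk2 and Cd59a probe sets and the other 3 called genes, these were 3 probe sets that did not stand for a tested gene. One for Aopep, an aminopeptidase, read 5.33, 5.42, 4.99 and 5.47 in WT and 4.18, 4.27, 4.17 and 4.36 in KO. The groups were far apart, with -1.06 ± 0.15 and adjusted p = 0.000711 in limma, while the brighter Aopep probe set gave 0.14 ± 0.17. The dimmer one was also lower at sham, day 1 and day 3, by -0.63, -0.96 and -0.56. Aopep, like Dapk1, is on the chromosome of Ntrk2, 107 annotated genes away. One of 5 probe sets for Zeb2, a zinc finger repressor, fell by 0.49 ± 0.09, adjusted p = 0.0261 in limma, and the other 4 ranged from -0.44 to 0.04. A probe set with no gene name read 6.07, 5.83, 4.38 and 6.35 in WT and 7.91, 8.06, 7.74 and 7.78 in KO, higher by 2.21 ± 0.41, adjusted p = 0.0283 in limma.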

How the data were processed

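Log2 values of 45101 probe sets on 34 arrays were used as deposited. Per the submitters' processing notes, the authors made these log2 values with GCRMA (version not given in the sources used here); GCRMA corrects background by probe GC content, normalises by quantiles and summarises by median polish. They ran from 2.17 to 15.9, with array medians of 4.14 to 4.39, and no 2 arrays were identical. Of the probe sets, 64 were controls, 34945 had 1 gene symbol, 932 several and 9160 none, and 34741 were matched by Entrez ID. The files name no genome build, so gene coordinates are left out except in the promoter table.

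With limma 3.58.1 (R 4.3.3), lmFit and eBayes estimated 1 mean for each of 8 groups, with Benjamini-Hochberg adjustment over the genes of each comparison and a threshold of 0.05. The fit was tested on simulated data. Named genes were those called, the 10 smallest p in each direction, the 8 largest non-overlapping differences of at least 1 in each direction, up to 4 members of each list and a set of markers; Cd74, C2, Cd93, Mt1, Mt2 and Arntl were named after their values were seen. Members and lists were chosen with earlier results of these data known. Alternatives covered the arrays fitted, normalization, filters, probe set choice, array weights and covariates.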

Additional observations from a re-analysis of the deposited data

Results flagged for a closer look

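Within the 4 arrays of a day 7 group, 1 array lay far from the other 3 for 12 of 222 values examined (5.41%), and chance alone marks about 1 in 20. Cnmd stood at 5.41 in WT replicate 1, with the others at 4.52 to 4.67, and Pnmt at 6.51 in WT replicate 2, with the others at 6.30 to 6.34. Fkbp5 was low in WT replicate 4 at 8.53, against 8.93 to 8.97, and Ccnd1 in WT replicate 2 at 10.36, against 10.54 to 10.57. In KO, Plin4 was low in replicate 1 at 4.74, against 5.88 to 6.05. Comp at 3.53 and Acp5 at 6.64 were high in KO replicate 2, where the other arrays were at 2.49 to 2.57 and at 6.47, and Comp was below 4 on all 4. Ifit2 at 10.23 and Bdnf at 6.77 were high in KO replicate 4, against 9.42 to 9.48 and 6.61 to 6.63. Of the list means, homeostatic microglia genes stood at 10.15 in WT replicate 4 and at 10.03 in KO replicate 3, and cytokines and chemokines at 5.90 in WT replicate 2.

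One result differed between genotypes by a test of the difference itself. The injury response of Cnmd, day 7 minus sham, differed by -1.93 between KO and WT, with adjusted p = 0.00935 in limma.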

How the results depend on the processing

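The count of genes called at day 7 moved with several settings. Against 4 genes, the 8 day 7 arrays alone gave 21 (18 higher and 3 lower in KO, sharing Cd59a and Dapk1), array weights 233 (131 higher), no day 3 arrays 29 (14 higher), no filter on low values 9, and trended robust variances 2. Centring arrays on their medians gave 3, of which 2 were higher. Leaving out 1 array at a time gave 2 to 6. Same-numbered arrays of the 2 genotypes correlated at -0.02 to 0.19, and 1 of 4 WT arrays correlated best with its own number. These few values show no clear pairing by number but cannot exclude one, and the labels state none. A replicate block gave 2 genes, and 0 in the 8 arrays alone, where 1491 had an unadjusted p under 0.05 in limma.

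For day 7 against the other times, the count of 0 became 2 with no filter, 3 with values under 4 set to 4, 26 with array weights and 1 with the caudal Hox covariate or without both WT day 7 replicate 3 and the library labelled KO sham replicate 2, and 0 to 1 on leaving out 1 array. For the injury response the count of 1 became 4, 2, 56, 495 (395 higher) and 2 in these settings, 0 with a filter at log2 6, where Cnmd is not tested, and 1 to 2 on leaving out 1 array. The causes were not tested.

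Cd59a and Dapk1 were called in 22 of 23 settings, at 0.855 to 0.986 and 0.878 to 1.08, Mcoln3 in 14 of 23 and Capn6 in 9 of 22. Of 1755 values for 77 genes, 1 reversed, that of Ntrk2 at -1.9 when its probe sets were averaged. Signal near background limits Capn6, Cnmd, Ibsp and Comp, which were below 4 on some or all arrays of a group.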

Other observations

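With the spread taken from the 8 day 7 arrays alone, 18 genes were called higher in KO in limma. Those known from neurons, picked after their values were seen, were Glra3, a glycine receptor subunit, at 0.712, Grm5, a metabotropic glutamate receptor, at 0.473, Necab1, a calcium-binding protein of dorsal horn neurons, at 0.526, and Camk2n1, an inhibitor of the kinase CaMKII, at 0.349. Tunar, a long noncoding RNA of neural tissue, had 0.858, and the Ntrk2 gene, read by probe set F, had 0.631, each with adjusted p = 0.0139. The others included Cd59a, Dapk1, Proser2, Serpinb1b, Mllt3 and Nedd4l. Among the 3 called lower were Pnmt at -0.437 and Hpgd, which breaks down prostaglandins, at -0.491. Apart from Cd59a and Dapk1, none of these passed when the spread came from all 34 arrays.

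In the first 2 principal components of the day 7 arrays, which hold 30.6% and 28.7% of the variance, the KO arrays lay at -5.1 to -2.1 and 6.4 to 11.6. The WT arrays spread from -20.5 to 22.3 and from -21.9 to 13.9, around the KO arrays on the first component.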
